A study of Mus musculus with 80 samples.

Results

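Interferon-induced effector genes were followed one by one in muscle stem cells (MuSCs) of mouse extraocular muscles (EOM) and of the Tibialis anterior (TA), before and after transplantation into TA muscle. Members were taken by name from the 25900 genes of the expression table. They are the families Ifi, Ifit, Ifitm, Oas, Gbp, Slfn, Irgm and Mx followed by their number or letter, and the genes Mnda, Ifih1, Isg15, Rsad2, Usp18, Bst2, Rtp4, Cmpk2, Xaf1, Igtp, Iigp1, Ddx58, Dhx58, Zbp1, Parp14, Trim30a, Herc6 and Eif2ak2. This gave 72 genes. The rule used names alone, but it was set with earlier results of these data known. The study had already named genes for interferon-induced proteins among those higher in its TA grafts. In the 30 RNA libraries compared, 69 of the 72 had at least 1 read and 3 (Oas1d, Oas1f and Oas1h) had none.

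Interferons are secreted signals of antiviral and antimicrobial defence. Type I interferons and interferon gamma bind separate receptors, whose Janus kinases phosphorylate STAT proteins. The STATs enter the nucleus, alone or with the partner Irf9, and switch on a shared set of target genes whose products sense foreign nucleic acid, block translation, trap virions at membranes or attack the vacuoles of intracellular pathogens. Many tissues, resting stem cells and the lining of blood vessels among them, keep part of this set active without infection.

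MuSCs came from Tg:Pax7-nGFP mice of 7.6 weeks (experiment 1) or 7 weeks (experiment 2), in which the Pax7 promoter drives a nuclear green fluorescent protein (GFP) in these cells, and were sorted by GFP. A sample of 500 cells per muscle was kept (pre-graft), and EOM and TA cells of the same donor were injected into the 2 TA muscles of 1 Rag2-/-;γC-/- recipient, a host that carries neither functional lymphocytes nor natural killer cells, after injury with cardiotoxin. Every graft was therefore analysed in a TA, none in an EOM, and grafted cells were sorted again by GFP, on day 21 by the labels, which left 16 to 67 cells per TA graft library (median 26) and a median of 35 cells, at the fewest 9, per EOM graft library. These are the cell numbers of the sample titles, and the study's quality table lists more cells for some of these grafts. The 4 groups held 8 TA pre-graft, 8 EOM pre-graft, 7 TA graft and 7 EOM graft libraries. The other 10 RNA libraries, which do not pass the study's quality table, stayed out of all tests and are given in the closing section.

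The libraries compared held 963432 to 4169357 reads on genes. Levels are given as the deposited log2 RPM (reads corrected for library size by the authors). A gene without a read stands at the value of 0.9 of a read in that library, for instance -1.14. This scale does not bring libraries to a common number of reads on genes. A read stood at 0.524 RPM in the EOM graft of mouse 6 of experiment 2, with 2046388 reads on genes. In the EOM pre-graft library of mouse 4 of experiment 1, with 2207178, it stood at 0.650 RPM. Fold changes on this scale, and their medians over all genes, include such differences between libraries. Mitochondrial genes took 3.47 to 28.8% of the reads on genes in TA pre-graft cells and 2.96 to 9.18% in EOM pre-graft cells. In TA grafts they took 8.73 to 81.1% and in EOM grafts 5.59 to 67.6%. The median log2 difference of all genes on grafting was -1.09 in TA and -1.48 in EOM cells, so a member's fold change of 0 lay above that of most genes. The 10 MuSC markers were called lower in both graft comparisons, all 10 of 10, with Sdc4 at -2.54 and -2.04 and Des at -2.33 and -1.68. Endothelial markers were called higher in both, 9 of 10 each, with Cldn5 at 4.88 in TA and 6.84 in EOM cells. The summed level of these 10 endothelial markers was 19.7 to 2873 RPM in TA pre-graft, 102 to 879 RPM in EOM pre-graft, 1406 to 7691 RPM in TA graft and 232 to 6549 RPM in EOM graft libraries. In such bulk samples fewer cells of a type and less RNA per cell cannot be told apart. A pair of libraries stood apart in the number of members read. The TA pre-graft library of mouse 3 of experiment 2 had a read of 24 members, where the other 7 had 42 to 53, and it also had the lowest endothelial level, 19.7 RPM. The EOM graft of mouse 2 of experiment 2 had a read of 38 members, where the other 6 had 54 to 62.

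The members as a group stood higher after grafting. They took 0.170 to 0.433% of the reads on genes in TA pre-graft cells (median 0.289%) and 0.328 to 2.15% in TA grafts (median 0.873%). In EOM cells the share was 0.307 to 0.420% before grafting (median 0.384%) and 0.313 to 1.20% after it (median 0.783%). The ranges overlapped in both muscles. Tests covered genes that exceeded 1 log2 RPM in 4 or more libraries of a comparison. Called genes are those with a limma adjusted p under 0.05, over all genes tested, whose fold change also exceeded 1 on the log2 scale in either direction.

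Of the 59 members tested in TA cells, 37 were called higher in the grafts and 0 lower, where 3.79% of all genes tested were called higher and 30.9% lower. Their median log2 fold change was 2.45. In 12 members every TA graft lay above every TA pre-graft library, which was so for 0.214% of all genes tested. Of the 58 members tested in EOM cells, 29 were called higher and 2 lower, where 3.51% of all genes tested were called higher and 55.8% lower, with a median log2 fold change of 1.41. In 6 members every EOM graft lay above every EOM pre-graft library, against 0.176% of all genes. Members that reached the filter only with help of the grafts had little room to fall, so those that reached it in the pre-graft libraries alone were also counted. These were 43 in TA cells, with 27 called higher, and 45 in EOM cells, with 19 called higher and 2 lower. The share of all genes in these subsets is not given here. The other 10 called higher in TA grafts were Ifi204, Mnda, Ifi202b, Ifi205, Gbp9, Oas1a, Oas1g, Slfn2, Slfn3 and Ifi27l2a. In EOM grafts the other 10 were Ifi204, Mnda, Ifi202b, Ifi205, Oas1a, Oas1g, Oas2, Ifitm1, Slfn3 and Ifi27l2a. Without the TA pre-graft library of mouse 3 of experiment 2, 35 members were called higher in TA grafts. Without the EOM graft of mouse 2 of experiment 2, 35 were called higher and 2 lower in EOM grafts.

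**Figure D1:**
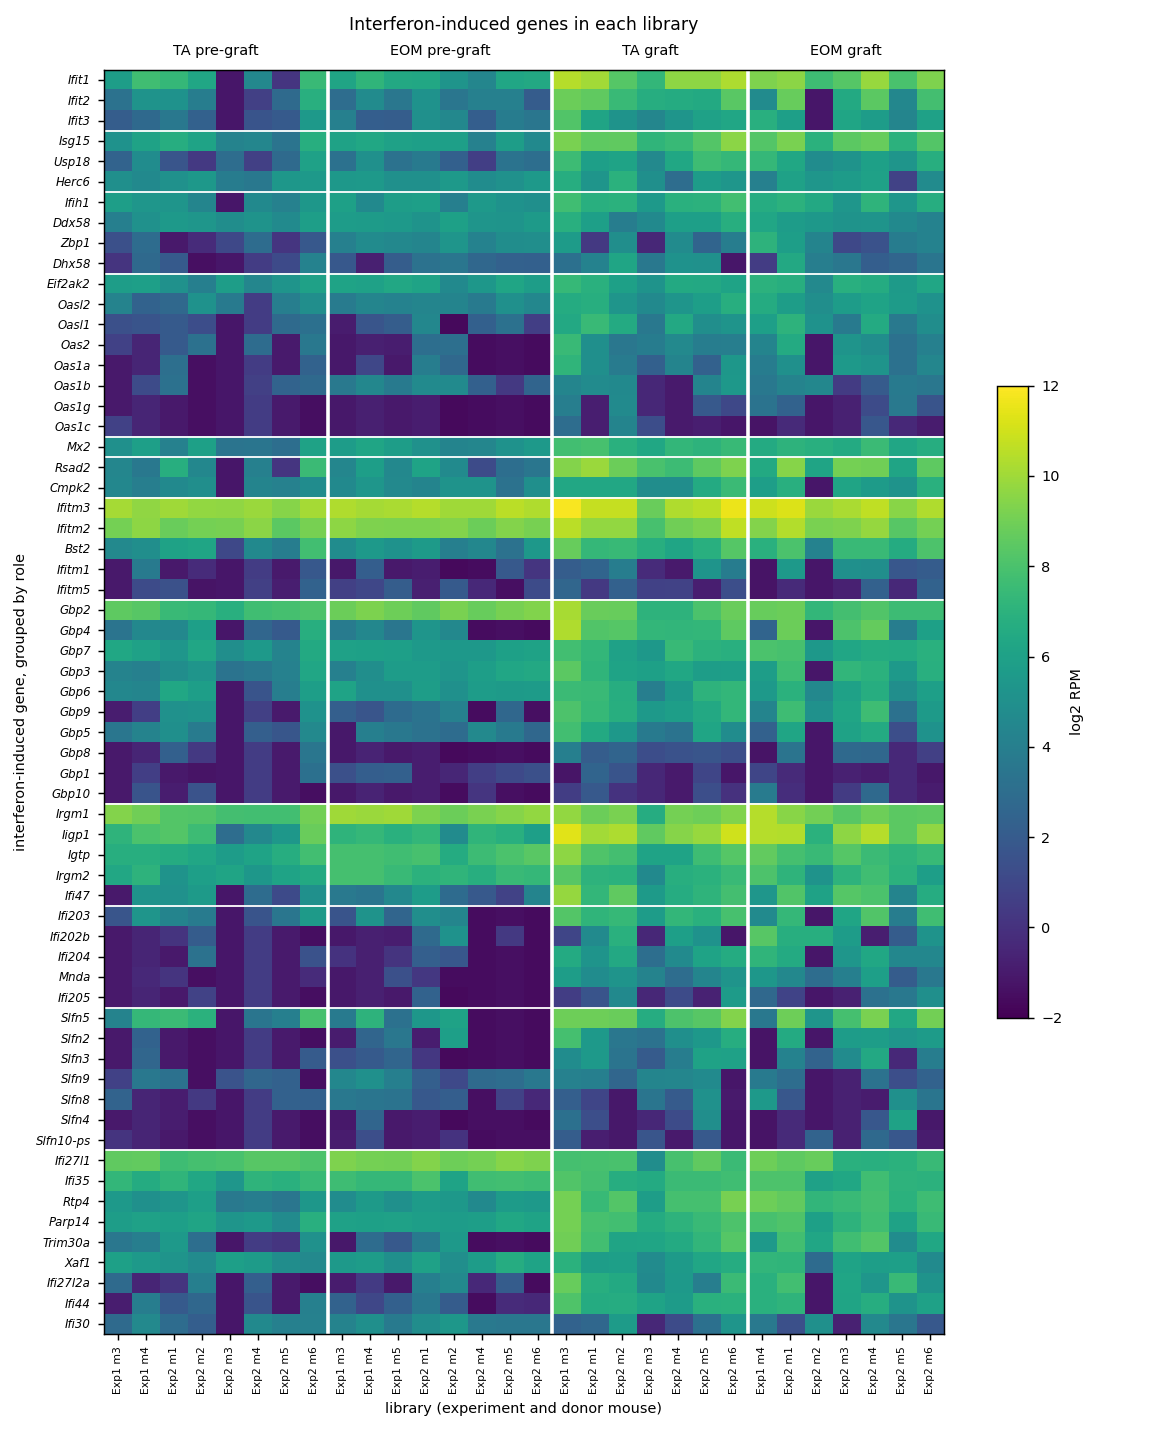
Log2 RPM of the 62 members tested in at least 1 comparison (rows, grouped by role) in each of the 30 libraries (columns, by group). Most rows are brighter, that is higher, in the graft columns, while Ifitm3, Ifitm2, Irgm1 and Gbp2 are high throughout.

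Fold changes depended on how libraries were put on 1 scale. When values were centred on the library median, scaled without mitochondrial genes, or normalised from the recovered reads by edgeR or DESeq2, 50 to 53 members were called higher in TA grafts, the 37 among them each time, and 35 to 44 in EOM grafts, the 29 among them each time. Over all genes, 496 were called higher and 4046 lower in TA grafts on the deposited scale, but 1003 higher and 743 lower after centring. The same numbers were 460 and 7302 in EOM grafts on the deposited scale and 871 and 634 after centring. The 2 members called lower in EOM grafts, Gbp1 and Ifi27l1, were not called under any of these 4 scalings, whereas every member called higher on the deposited scale was called higher on all of them.

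Endothelial markers, like the members as a group, stood higher in the grafts. With the endothelial marker level of each library as a covariate, a fit chosen after seeing the data, 10 members were called higher in TA grafts and 3 in EOM grafts, and 0 lower in either. In this fit 0.206% of all genes tested were called higher and 6.56% lower in TA grafts, and 0.137% higher and 3.67% lower in EOM grafts, so calls fell over all genes as well. The members' median log2 fold change was then 1.42 in TA and 0.38 in EOM grafts, against -1.21 and -0.99 over all genes tested. Of the called members, 1 of 37 in TA and 4 of 31 in EOM grafts changed sign. Among them Gbp6 went from 2.58 to -0.21 in TA grafts and Ifitm1 from 2.67 to -0.51 in EOM grafts. The endothelial level itself was higher in most grafts, so this fit cannot separate it well from grafting. With the 2 TA grafts and 3 EOM grafts whose endothelial level lay at or below the highest pre-graft level of 2873 RPM, 11 members were called higher in TA grafts, and 13 higher and 2 lower in EOM grafts. That limit was set by a TA library, and the highest EOM pre-graft library had 879 RPM. In these smaller fits 0.578% of all genes tested were called higher and 42.8% lower in TA grafts, and 0.687% higher and 36% lower in EOM grafts. One EOM graft, of mouse 4 of experiment 1, had an endothelial level of 232 RPM, inside the pre-graft range, and a member share of 0.918%, above all 16 pre-graft libraries. The part of endothelial RNA in the members' changes was not tested otherwise.

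**Figure D2:**
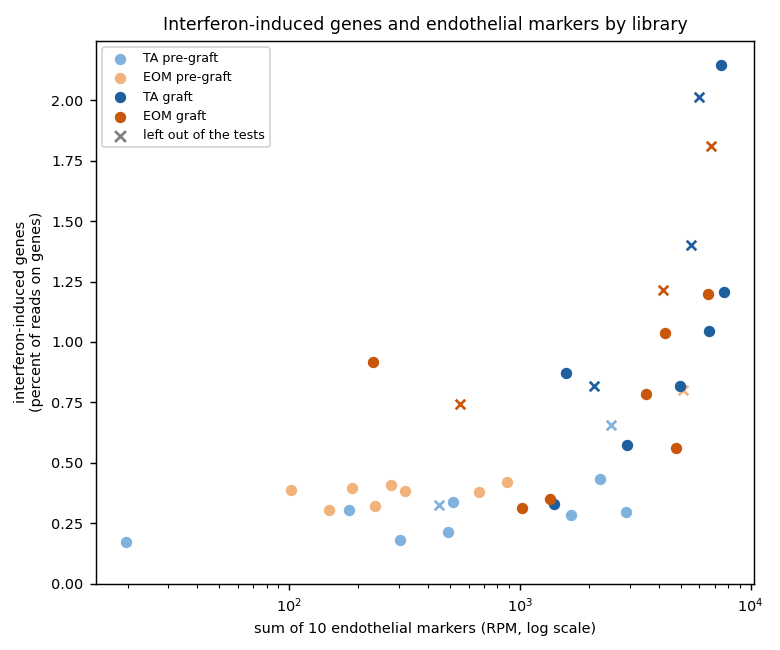
Percent of the reads on genes that fell on the members (vertical axis) against the summed RPM of 10 endothelial markers (horizontal, log scale), 1 point per library, with crosses for libraries left out of the tests (1 library with 302 reads on genes is not drawn). Many grafts with more endothelial RNA had a larger member share, but not all. The EOM graft at 232 RPM stands at 0.918% and the one at 4732 RPM at 0.559%. The relation was not tested.

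Target genes of type I interferon often carry an interferon-stimulated response element (ISRE), bound by STATs with Irf9, close to their start, and those of interferon gamma a gamma-activated site (GAS). The 250 bases before the start site of 48 members in RefSeq's promoter annotation (GRCm38.p6) were searched on both strands for the ISRE core GAAANNGAA and for the GAS core TTCNNNGAA. At least 1 ISRE core lay before 24 of the 48 members (50.0%) and before 8.18% of the 27025 genes of that annotation. A GAS core lay before 10 members (20.8%) and before 8.13% of genes, 6 members held both, 1 of them with the motifs overlapping, and 20 held neither. An ISRE core was present in 15 of 24 members called higher in TA grafts and 7 of 17 tested and not called, and in 12 of 19 and 10 of 21 for EOM grafts. The following windows show the motifs of 4 members that were higher in the grafts (Isg15, Ifit1, Rsad2 and Ifih1) and of 3 that were not called there (Irgm1, Gbp2 and Igtp). Motif letters are in capitals, which join where cores overlap, and each is read 5′ to 3′ on the strand of its gene.
Isg15: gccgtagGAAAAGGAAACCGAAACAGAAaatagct
Ifit1: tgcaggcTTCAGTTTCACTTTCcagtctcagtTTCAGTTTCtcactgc
Rsad2: tccaactTTCATTTTCagaaaac
Ifih1: attcgcgTTCCCTTTCctgtttc
Irgm1: gtttcaaGAAATAGAAACCGAAactgatt
Gbp2: ttttagtTTCACTTTCactgtct
Igtp: tagccatTTCTAGGAActgaaac
The ISRE cores are those of Isg15 (chr4:156200869-156200903, minus strand), Ifit1 (chr19:34640773-34640820, plus), Rsad2 (chr12:26456556-26456578, minus), Ifih1 (chr2:62646352-62646374, minus), Irgm1 (chr11:48871429-48871457, minus) and Gbp2 (chr3:142620598-142620620, plus). The window of Igtp (chr11:58199504-58199526, plus) shows a GAS core. Igtp also held 1 ISRE core in its 250 bases, which is not marked in that window. These are matches of letters, not measured binding.

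The IFIT proteins bind foreign RNA ends and keep such RNA from being translated. All 3 were called higher in TA grafts and 1 of 3, Ifit1, in EOM grafts. Ifit1 ranged from -1.14 to 7.73 (median 6.04) in TA pre-graft cells and from 7.29 to 10.46 (median 9.63) in TA grafts. In EOM cells it ranged from 4.43 to 7.15 (median 6.34) before and from 7.65 to 9.83 (median 9.31) after grafting. Every EOM graft was above every EOM pre-graft library, and in TA the lowest graft fell below the highest pre-graft library. The log2 fold change was 4.60 ± 1.00 (limma, adjusted p = 0.0027) in TA and 2.78 ± 0.40 (limma, adjusted p = 9.24e-05) in EOM cells, where ± is the standard error. Without the TA pre-graft library that had no read of the gene (mouse 3 of experiment 2) the TA value was 3.76. Ifit2 ranged from -1.14 to 6.81 (median 3.60) in TA pre-graft cells and from 6.48 to 8.83 (median 7.50) in TA grafts, against from 2.05 to 5.16 (median 3.83) in EOM pre-graft cells and from -1.14 to 8.74 (median 6.53) in EOM grafts. The EOM graft of mouse 2 of experiment 2 had no read of Ifit2 or Ifit3, and the spread among EOM grafts was accordingly wide. Ifit2 changed by 4.26 ± 0.82 (limma, adjusted p = 0.00127) in TA cells, and its EOM value of 1.89 ± 1.05 (limma, adjusted p = 0.117) did not pass. Ifit3, whose sequence is shared with Ifit3b over 41.1% of its 75-base stretches, stood at 3.59 ± 0.77 (limma, adjusted p = 0.00256) in TA and 1.41 ± 0.92 (limma, adjusted p = 0.179) in EOM cells.

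Isg15, a ubiquitin-like protein that is coupled to other proteins, and Usp18, the protease that removes it and dampens the interferon receptor, were called higher in both muscles, and Herc6, its ligase in the mouse, in neither. Isg15 ranged from 3.41 to 6.76 (median 5.59) in TA pre-graft cells and from 7.14 to 9.56 (median 8.53) in TA grafts. Its EOM values ran from 4.18 to 6.35 (median 5.92) before and from 6.93 to 9.18 (median 8.28) after grafting. All grafts of both muscles lay above all pre-graft libraries of the same muscle, as in the plot of single genes by group. The log2 fold changes were 3.02 ± 0.50 (limma, adjusted p = 0.0004) for TA and 2.52 ± 0.40 (limma, adjusted p = 0.000202) for EOM cells. Usp18 went from 0.33 to 6.0 (median 2.65) in TA pre-graft cells and from 4.57 to 7.64 (median 6.32) in TA grafts, with overlap, a change of 3.77 ± 0.74 (limma, adjusted p = 0.00141). It went from 0.59 to 5.02 (median 3.26) in EOM pre-graft cells and from 4.82 to 7.32 (median 5.94) in EOM grafts, again with overlap, a change of 2.88 ± 0.59 (limma, adjusted p = 0.001). Herc6 had a median of 5.00 in TA pre-graft cells, 5.36 in TA grafts, 5.29 in EOM pre-graft cells and 5.34 in EOM grafts. Its fold changes of 0.61 ± 0.54 in TA and -0.58 ± 0.61 in EOM cells did not pass.

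Viperin, encoded by Rsad2, makes a nucleotide that stops viral RNA synthesis, and Cmpk2, its neighbour on chromosome 12, encodes a nucleotide kinase. Rsad2 ranged from -1.14 to 7.52 (median 4.26) in TA pre-graft cells and from 7.59 to 9.88 (median 8.85) in TA grafts. EOM values ran from 1.18 to 6.14 (median 4.48) before and from 6.17 to 9.43 (median 8.50) after grafting. No graft overlapped with the pre-graft libraries of its muscle, and the fold changes were 5.05 ± 0.88 (limma, adjusted p = 0.000572) in TA and 3.66 ± 0.68 (limma, adjusted p = 0.000567) in EOM cells. Cmpk2 ranged from -1.14 to 4.92 (median 4.40) in TA pre-graft cells and from 4.84 to 7.54 (median 6.40) in TA grafts, and from 3.27 to 5.35 (median 4.80) in EOM pre-graft cells and from -1.14 to 6.90 (median 5.82) in EOM grafts. It was called higher in TA grafts alone, at 2.38 ± 0.72 (limma, adjusted p = 0.016), with an EOM value of 0.38 ± 0.86 (limma, adjusted p = 0.702). The 2 libraries that stood apart had no read of it. Without the one of TA pre-graft cells its TA change was 1.67 and that of Rsad2 4.35.

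Mx2, a dynamin-like antiviral GTPase, rose without overlap in both muscles. Its level ran from 3.06 to 6.09 (median 4.60) in TA pre-graft cells, from 6.31 to 7.93 (median 7.25) in TA grafts, from 4.32 to 6.21 (median 5.34) in EOM pre-graft cells and from 6.28 to 7.56 (median 6.73) in EOM grafts. The changes were 2.61 ± 0.50 (limma, adjusted p = 0.00116) in TA and 1.51 ± 0.35 (limma, adjusted p = 0.00223) in EOM cells. Mx1, of the same family, did not reach the filter in any comparison.

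**Figure D3:**
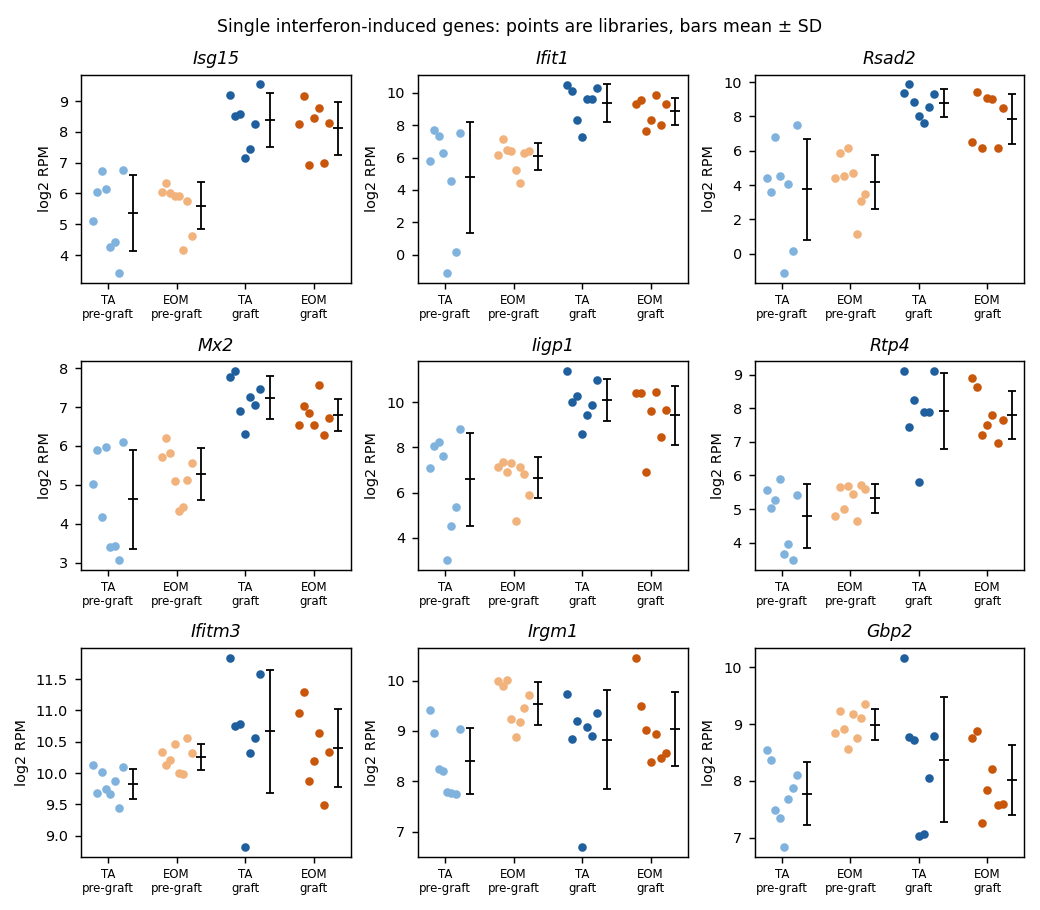
Log2 RPM of 9 members in each library of the 4 groups (points), with the group mean and SD (line and bar). Isg15, Rsad2 and Mx2 do not overlap between grafts and pre-graft libraries of the same muscle, whereas Ifitm3, Irgm1 and Gbp2 do.

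Among the sensors of foreign nucleic acid, Ifih1 (MDA5) and Ddx58 (RIG-I) detect viral RNA, Dhx58 (LGP2) tunes them, and Zbp1 binds left-handed nucleic acid and can start cell death. Ifih1 was called higher in both muscles, Dhx58 in TA grafts alone, and Ddx58 and Zbp1 in neither. Ifih1 ranged from -1.14 to 5.86 (median 4.98) in TA pre-graft cells and from 5.55 to 7.74 (median 6.96) in TA grafts, a change of 2.70 ± 0.73 (limma, adjusted p = 0.00857). In EOM cells it ranged from 4.07 to 5.94 (median 5.35) before and from 5.35 to 7.13 (median 6.67) after grafting, a change of 1.12 ± 0.40 (limma, adjusted p = 0.0202). Both pairs of ranges overlapped, and the TA pre-graft minimum came from 1 library, of mouse 3 of experiment 2, without a read of Ifih1, without which the TA change was 1.93. In EOM cells the call was lost without the graft of mouse 4 or the pre-graft library of mouse 2, both of experiment 2, with a lowest value of 0.95. Ddx58 hardly moved, with medians of 5.15 in TA pre-graft cells, 5.89 in TA grafts, 5.62 in EOM pre-graft cells and 5.27 in EOM grafts. Dhx58 changed by 2.74 ± 1.02 (limma, adjusted p = 0.0402) in TA cells and stood at 1.08 ± 0.82 (limma, adjusted p = 0.242) in EOM cells. Its TA call was lost in 10 of the 15 fits that left out 1 library, with values of 2.33 to 3.56. Zbp1 stood at 1.97 ± 0.97 in TA and -0.66 ± 0.71 in EOM cells.

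The 2′-5′ oligoadenylate synthetases (Oas) make a messenger that activates RNA decay, and Eif2ak2 (PKR) is a kinase that halts translation. This group was set by gene name, not by enzyme activity, and takes in the Oas-like genes Oasl1 and Oasl2. Of its 13 genes, 7 were tested in each graft comparison and 5 were called higher in both, Oasl1, Oasl2, Oas2, Oas1a and Oas1g. Oasl2 ranged from 0.48 to 5.12 (median 3.87) in TA pre-graft cells and from 4.67 to 6.79 (median 5.87) in TA grafts, a change of 2.45 ± 0.64 (limma, adjusted p = 0.0074). Its EOM values ran from 3.72 to 5.05 (median 4.35) before and from 4.90 to 6.61 (median 5.76) after grafting, a change of 1.42 ± 0.39 (limma, adjusted p = 0.00534). In both muscles the lowest graft lay below the highest pre-graft library. Oasl1 ranged from -1.14 to 3.16 (median 1.53) in TA pre-graft cells and from 3.62 to 7.50 (median 6.46) in TA grafts, without overlap, with a change of 4.37 in TA and 3.81 in EOM cells. Oas2 changed by 3.42 ± 0.89 and 4.02 ± 1.04, and Oas1a by 4.21 ± 0.91 and 3.61 ± 1.04. Oas1g had no read in any of the 16 pre-graft libraries. Against a floor of 3 reads per library its mean RPM was at least 3.46-fold higher in TA grafts and at least 3.32-fold higher in EOM grafts. These means rested on part of the grafts, with 0 to 51 reads per TA graft and 0 to 21 per EOM graft. The gene had no read in the TA grafts of mice 1, 3 and 4 or the EOM grafts of mice 2 and 3, all of experiment 2. Its TA call was lost in 9 of 15 fits that left out 1 library (values of 2.16 to 2.62), and with the donor mouse as block, at 2.29. The EOM calls of Oasl2, at 1.32, and Oas1a, at 2.92, were not kept with that block. Oas1a and Oas1g share 47.6 and 36.9% of their 75-base stretches, so reads could be split between them. Eif2ak2 ranged from 4.07 to 6.02 (median 5.50) in TA pre-graft cells and from 5.17 to 7.35 (median 6.45) in TA grafts, and from 4.63 to 6.38 (median 6.05) in EOM pre-graft cells and from 4.60 to 6.99 (median 6.61) in EOM grafts. Its values of 1.07 ± 0.43 (limma, adjusted p = 0.0537) and 0.41 ± 0.39 (limma, adjusted p = 0.357) did not pass.

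Membrane proteins that stop virus entry (Ifitm) or hold budding virions (Bst2, tetherin) included the most abundant members. Per kb of exon Ifitm3 had the highest median level of all members in each of the 4 groups, with 1327 RPM per kb in TA pre-graft cells, 1818 in EOM pre-graft cells, 2532 in TA grafts and 1905 in EOM grafts. Ifitm2 was next in each, at 836, 944, 1298 and 952 RPM per kb, and 42.0% of its 75-base stretches also occur in other genes. Ifitm3 ranged from 9.45 to 10.13 (median 9.81) log2 RPM in TA pre-graft cells and from 8.82 to 11.84 (median 10.75) in TA grafts. In EOM cells it ranged from 9.99 to 10.56 (median 10.27) before and from 9.49 to 11.29 (median 10.34) after grafting. The graft ranges enclosed the pre-graft ranges in both muscles. Fold changes of 0.83 ± 0.37 (limma, adjusted p = 0.0801) and 0.15 ± 0.26 (limma, adjusted p = 0.617) did not pass, nor did those of Ifitm2, 0.43 ± 0.37 in TA and 0.08 ± 0.26 in EOM cells. Bst2 ranged from 1.01 to 7.74 (median 4.77) in TA pre-graft cells and from 6.23 to 8.76 (median 7.30) in TA grafts, a change of 2.50 ± 0.66 (limma, adjusted p = 0.00806). It ranged from 3.27 to 5.61 (median 4.99) in EOM pre-graft cells and from 4.22 to 8.11 (median 7.46) in EOM grafts, a change of 2.16 ± 0.52 (limma, adjusted p = 0.00262). Ifitm1 was the 1 member called higher in EOM grafts alone, at 2.67 ± 1.03 (limma, adjusted p = 0.0313), with a TA value of 2.15 ± 0.97 (limma, adjusted p = 0.0804). Its median was -0.97 in EOM pre-graft cells and 2.07 in EOM grafts. The EOM call was not kept with the donor mouse as block, where the value was 1.96, and it was lost in 7 of 15 fits that left out 1 library (values of 2.15 to 3.28).

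The weight of the abundant members shrank accordingly. Ifitm3 held a median of 25.3% of the members' reads in TA pre-graft cells and 15.5% in TA grafts. Iigp1 went from 4.16 to 10.6% and Ifit1 from 1.69 to 7.17% over the same step. A median of 3.5 members made up 50% of the members' reads in TA pre-graft cells and 7 in TA grafts, against 4 and 7 in EOM cells.

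Guanylate-binding proteins (Gbp) are large GTPases that coat and break pathogen vacuoles. In TA grafts 6 of 9 tested were called higher (Gbp3, Gbp4, Gbp5, Gbp6, Gbp7 and Gbp9). In EOM grafts 2 of 8 were called higher (Gbp7 and Gbp9) and 1 lower (Gbp1). Gbp4 ranged from -1.14 to 6.79 (median 3.94) in TA pre-graft cells and from 7.24 to 10.33 (median 8.18) in TA grafts, without overlap, a change of 4.59 ± 0.80 (limma, adjusted p = 0.000572). In EOM cells it ranged from -1.56 to 5.28 (median 3.66) before and from -1.14 to 8.87 (median 5.97) after grafting, and the value of 3.13 ± 1.44 (limma, adjusted p = 0.0624) did not pass. Gbp9 moved without overlap in TA cells by 5.06 ± 0.96 and with overlap in EOM cells by 3.93 ± 0.90. Gbp7 showed a smaller change, ranging from 4.25 to 6.52 (median 5.77) in TA pre-graft cells, from 5.44 to 7.78 (median 6.97) in TA grafts, from 5.45 to 6.06 (median 5.91) in EOM pre-graft cells and from 5.49 to 8.02 (median 6.62) in EOM grafts. Its changes were 1.17 ± 0.44 (limma, adjusted p = 0.0398) and 1.04 ± 0.36 (limma, adjusted p = 0.0187). The TA call was lost in 10 of 15 fits that left out 1 library (values of 0.97 to 1.40) and the EOM call in 4 (values of 0.85 to 1.27). The call of Gbp5 in TA grafts was lost in 4 (values of 1.81 to 2.74), and that of Gbp1 in EOM grafts in 10 (values of -1.73 to -1.27). Gbp2, the member of this family with most reads, ranged from 7.03 to 10.17 (median 8.72) in TA grafts and from 7.25 to 8.87 (median 7.84) in EOM grafts, at 0.60 ± 0.41 and -0.98 ± 0.27, and was not called in either. Nearly all of Gbp6, 99.4% of its 75-base stretches, is shared with neighbouring genes, so its values are uncertain. Without the TA pre-graft library of mouse 3 of experiment 2 the TA changes of Gbp4 and Gbp6 were 3.91 and 1.86.

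The immunity-related GTPases act on the same vacuoles. Iigp1 and Ifi47 were called higher in both muscles, and Irgm1, Irgm2 and Igtp in neither. Iigp1 ranged from 3.01 to 8.83 (median 7.34) in TA pre-graft cells and from 8.60 to 11.39 (median 10.03) in TA grafts. EOM cells gave values from 4.73 to 7.34 (median 7.02) before and from 6.93 to 10.44 (median 9.66) after grafting. The highest pre-graft library of each muscle reached into the graft range, and the changes were 3.49 ± 0.65 (limma, adjusted p = 0.00102) and 2.75 ± 0.49 (limma, adjusted p = 0.000438). Ifi47 changed by 4.68 ± 0.92 (limma, adjusted p = 0.00138) in TA cells, without overlap, and by 3.31 ± 0.71 (limma, adjusted p = 0.00139) in EOM cells. Irgm1 stood high in all groups, from 6.69 to 9.74 (median 9.07) in TA grafts and from 8.38 to 10.45 (median 8.93) in EOM grafts. Its values of 0.43 ± 0.40 and -0.50 ± 0.30, like those of Igtp, 1.09 ± 0.45 and 0.03 ± 0.30, and Irgm2, 0.79 ± 0.45 and -0.51 ± 0.37, did not pass.

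The PYHIN family of DNA-binding proteins (Ifi202b, Ifi203, Ifi204, Ifi205 and Mnda) lies in 1 cluster on chromosome 1, from 173747293 to 174031755 in GRCm38. All 5 were called higher in the grafts of both muscles. In both, Ifi204, Mnda, Ifi202b and Ifi205 reached the filter only with help of the grafts and so had little room to fall. Ifi203, the one with most reads, ranged from -1.14 to 5.63 (median 3.66) in TA pre-graft cells and from 5.76 to 8.23 (median 7.26) in TA grafts, without overlap, a change of 4.13 ± 0.75 (limma, adjusted p = 0.000776). EOM values ran from -1.56 to 5.18 (median 2.11) before and from -1.14 to 8.22 (median 6.25) after grafting, with overlap, a change of 3.52 ± 1.33 (limma, adjusted p = 0.0281). Ifi204 was near 0 reads in most pre-graft libraries, from -1.14 to 3.27 (median -0.76) in TA and from -1.56 to 2.26 (median -0.35) in EOM cells. In the grafts it reached from 3.04 to 6.59 (median 6.13) in TA and from -1.14 to 7.17 (median 5.37) in EOM cells, changes of 5.47 ± 0.84 and 4.88 ± 1.03. Ifi202b ranged from -1.14 to 6.89 (median 4.69) in TA grafts and from -0.80 to 8.37 (median 5.73) in EOM grafts, changes of 3.45 ± 1.07 (limma, adjusted p = 0.0184) and 4.57 ± 1.24 (limma, adjusted p = 0.00538), and in both muscles some grafts overlapped with pre-graft cells. Mnda rose without overlap in both muscles, by 5.25 ± 0.72 and 4.85 ± 0.71, although 63.6% of its 75-base stretches occur in its neighbours. The EOM call of Ifi203 was not kept with the donor mouse as block, at 3.47, and was lost in 7 of 15 fits that left out 1 library (values of 3.03 to 4.59). The TA call of Ifi205, a change of 2.42 ± 0.87 there and 2.75 ± 0.88 in EOM cells, was lost in 8 such fits (values of 2.30 to 2.82). Ifi202b in TA cells stood at 2.82 without the graft of mouse 2 of experiment 2, and Ifi203 in TA cells at 3.52 without the pre-graft library of mouse 3 of experiment 2.

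Schlafen genes encode RNA-binding proteins that restrain growth and translation. They lie together on chromosome 11, and 3 of 6 tested were called higher in TA grafts (Slfn2, Slfn3 and Slfn5) and 2 of 6 in EOM grafts (Slfn3 and Slfn5). Slfn5 ranged from -1.14 to 7.93 (median 5.59) in TA pre-graft cells and from 6.67 to 9.38 (median 8.79) in TA grafts, a change of 3.41 ± 0.90 (limma, adjusted p = 0.00791). Its EOM values ran from -1.56 to 7.07 (median 3.46) before and from 3.61 to 9.16 (median 7.87) after grafting, a change of 4.57 ± 1.27 (limma, adjusted p = 0.00616). Overlap was present in both. Slfn2 ranged from -1.45 to 2.43 (median -1.03) in TA pre-graft cells and from 3.30 to 7.87 (median 5.44) in TA grafts, without overlap, a change of 5.86 ± 0.85 (limma, adjusted p = 0.000196). In EOM grafts, from -1.24 to 6.56 (median 5.68), it reached 3.12 ± 1.38 (limma, adjusted p = 0.0537) and did not pass. Without the TA pre-graft library of mouse 3 of experiment 2 the change of Slfn5 was 2.53. The EOM call of Slfn3, 2.89 ± 1.06, was lost without the graft of mouse 3 or of mouse 4 of experiment 2, with a lowest value of 2.29.

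The other 10 members included Trim30a, an E3 ligase that limits inflammatory signalling, Rtp4, a receptor chaperone with antiviral action, Parp14, an ADP-ribosyltransferase, and Ifi44 and Ifi27l2a, induced widely by interferon. These 5 were called higher in both muscles. Rtp4 ranged from 3.48 to 5.90 (median 5.16) in TA pre-graft cells and from 5.80 to 9.11 (median 7.88) in TA grafts, a change of 3.13 ± 0.49 (limma, adjusted p = 0.000302). Its level in EOM cells ran from 4.64 to 5.70 (median 5.52) before and from 6.96 to 8.89 (median 7.66) after grafting, without overlap, a change of 2.49 ± 0.34 (limma, adjusted p = 6.03e-05). Ifi44 changed by 5.31 ± 0.81 in TA cells, without overlap, and 4.14 ± 1.07 in EOM cells. Trim30a changed by 4.72 ± 0.83 and 5.61 ± 1.01, and Ifi27l2a by 5.63 ± 0.91 and 4.49 ± 1.20. Parp14 had a smaller change of 1.93 ± 0.39 and 1.21 ± 0.35. Ifi27l1, of the Ifi27 family, went the other way. It ranged from 8.92 to 9.45 (median 9.20) in EOM pre-graft cells and from 6.84 to 8.91 (median 7.51) in EOM grafts, with every graft below every pre-graft library, a fall of -1.43 ± 0.33 (limma, adjusted p = 0.00199). That fold change was about the median of all genes, -1.48. Ifi35 and Xaf1 did not pass in either muscle, at 0.68 ± 0.37 and 0.68 ± 0.42 in TA and -0.25 ± 0.36 and -0.01 ± 0.52 in EOM cells.

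**Figure D4:**
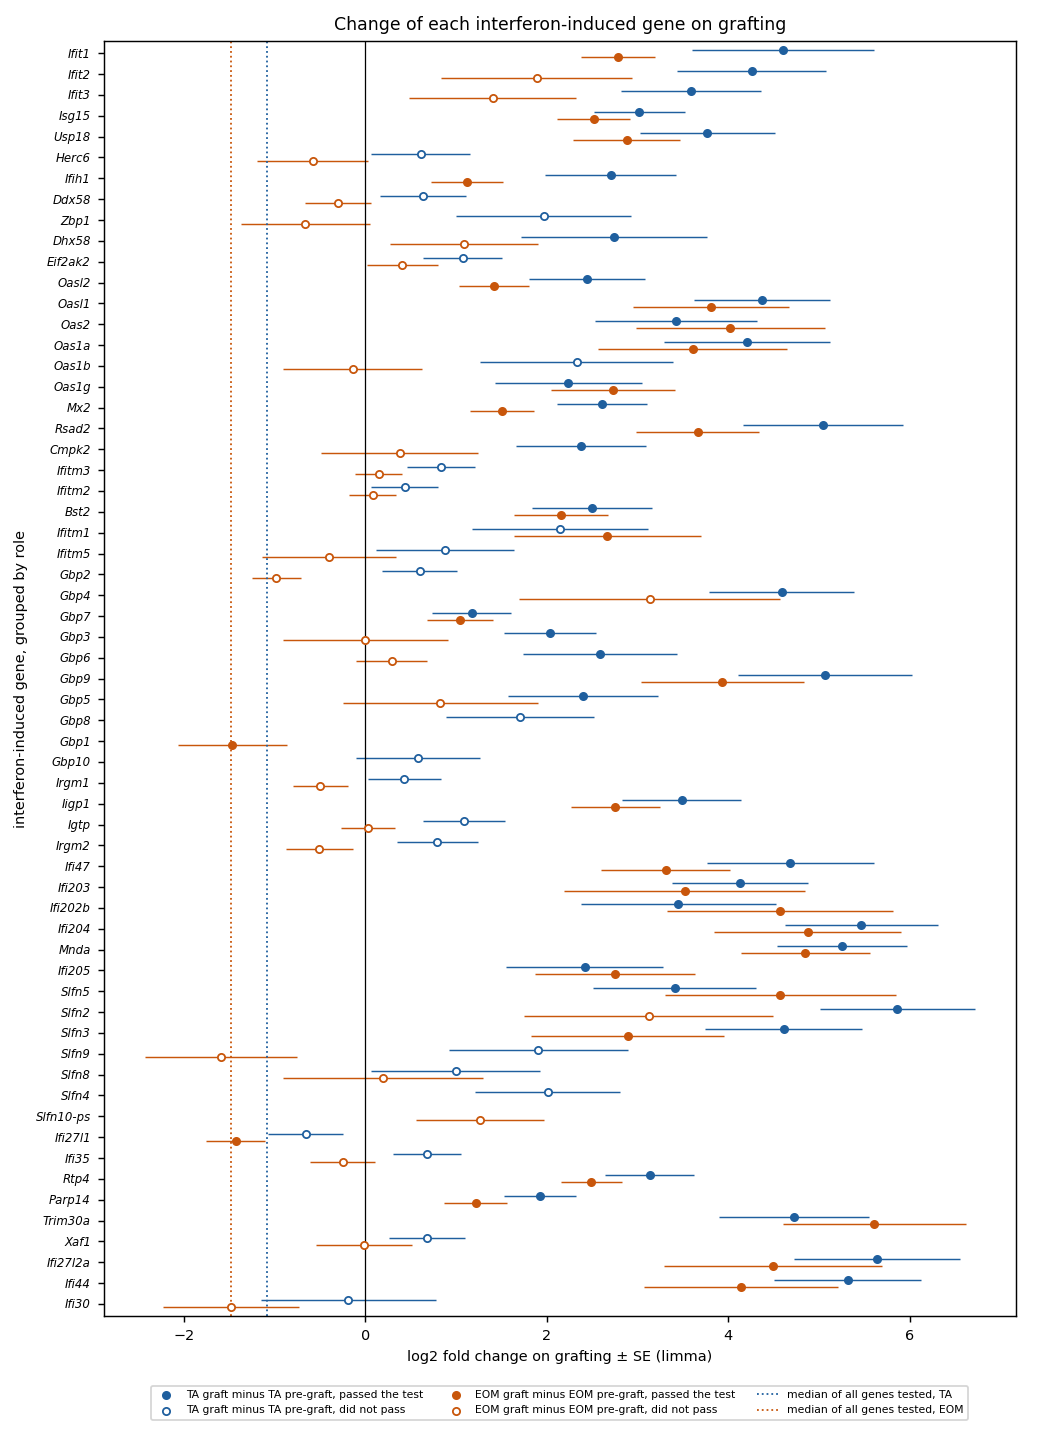
Log2 fold change on grafting with its standard error (limma) for each member tested, TA cells in blue and EOM cells in orange, filled where the test was passed, with dotted lines at the medians of all genes tested (-1.09 and -1.48). In EOM cells Ifi27l1, Gbp1, Slfn9 and Ifi30 lie near the line for EOM, and the other members of both muscles lie to the right of the line for their muscle.

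Between them the comparisons called 38 members higher, 28 in both muscles, which is 75.7% of those called in TA and 96.6% of those called in EOM grafts. TA grafts alone had 9 (Cmpk2, Dhx58, Gbp3, Gbp4, Gbp5, Gbp6, Ifit2, Ifit3 and Slfn2) and EOM grafts alone 1 (Ifitm1). Of the 21 members with a read in all 16 pre-graft libraries, 9 were called higher in TA and 8 in EOM grafts. The share of all genes under that condition is not given here, so these counts stand without a background.

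The change on grafting was not shown to differ between the muscles. Of 56 members tested in both, 49 had the larger value in TA cells. The share of all genes with the larger value there is not given here, but their median leaned the same way. The median difference, EOM minus TA, was -0.93 over the 62 members and -0.31 over all genes tested. The difference of the 2 changes was called for 0 of the 62 members, where 0.0554% of all genes were called higher and 0.152% lower. Limma gave 5 of the 62 members an unadjusted p under 0.05, edgeR 5 and DESeq2 6. Over all genes tested the shares were 7.22% with limma, 9.45% with edgeR and 8.5% with DESeq2, near those of the members. EdgeR and DESeq2 called 0 members. The lowest limma adjusted p among members was 0.36, for Gbp2. Its change in EOM cells minus that in TA cells was -1.58, with a 95% interval of -2.60 to -0.56. The median half-width of these intervals was 2.15 over the 62 members, so differences between muscles of that size could not be told from 0 for a typical member.

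Grafts of both origins were also compared directly, since all of them came from TA muscle. None of the 61 members tested was called, as was none of all genes tested (0%). An unadjusted p under 0.05 was given to 3 members by limma and to 0 by edgeR and DESeq2, which called 0. Over all genes tested that share was 3.65% with limma, 2.8% with edgeR and 4.03% with DESeq2. The difference, TA minus EOM, was 0.26 for Isg15 with a 95% interval of -0.72 to 1.25, and 0.95 for Rsad2 with -0.15 to 2.06. For Iigp1 it was 0.67, with -0.42 to 1.75. All 61 intervals reached beyond 1 in size. Within the 6 recipients with a passing graft of each origin, the mean log2 RPM of the members was higher in the TA graft in 3 and in the EOM graft in 3. In 5 of these 6 recipients the graft with the higher mean also had the larger endothelial marker sum. That graft also had the lower mitochondrial share, except in the recipient of mouse 4 of experiment 2. There the EOM graft had the higher mean and a share of 60.6%, against 45.4% in the TA graft. Neither relation was tested.

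Before grafting, 6 of 53 members tested were called lower in TA than in EOM cells and 0 higher, where 3.31% of all genes tested were called lower and 1.26% higher. They were Zbp1, Gbp2, Ifi27l1 and the immunity-related GTPases Irgm1, Irgm2 and Igtp. Gbp2, Irgm1, Irgm2 and Igtp all encode interferon-induced GTPases of the vacuole. Zbp1 ranged from -1.02 to 2.95 (median 1.22) in TA and from 4.12 to 5.29 (median 4.65) in EOM cells. Gbp2 ranged from 6.83 to 8.54 (median 7.78) in TA and from 8.56 to 9.35 (median 9.01) in EOM cells. For both, all 8 TA libraries lay below all 8 EOM libraries, with differences of -3.50 ± 0.58 (limma, adjusted p = 0.000333) and -1.22 ± 0.20 (limma, adjusted p = 0.000336). Ifi27l1 also did not overlap, from 7.64 to 8.62 (median 8.23) in TA and from 8.92 to 9.45 (median 9.20) in EOM cells, a difference of -1.01 ± 0.15 (limma, adjusted p = 9.54e-05), just beyond the limit of 1. Irgm1 ranged from 7.74 to 9.42 (median 8.22) in TA and from 8.87 to 10.01 (median 9.58) in EOM cells, a difference of -1.15 ± 0.24 (limma, adjusted p = 0.00377). Irgm2 ranged from 5.22 to 7.05 (median 6.15) and from 6.80 to 7.88 (median 7.39), and differed by -1.27 ± 0.23 (limma, adjusted p = 0.00112). Igtp ranged from 5.71 to 7.77 (median 6.66) and from 6.59 to 8.40 (median 7.86), and differed by -1.16 ± 0.25 (limma, adjusted p = 0.00514). For these 3 the groups overlapped. With the donor mouse as block Ifi27l1 stood at -1.0 and Irgm1 at -0.99, and neither was then called. Ifi27l1 was also lost in 8 of the 16 fits that left out 1 library (values of -1.07 to -0.93). In experiment 2 alone 5 of the 6 were called, without Igtp. Zbp1 was called under every alternative that was run, and the others were lost under some: 2 members, Zbp1 and Irgm2, were called when values were centred on the library median or scaled without mitochondrial genes, and 1 member, Zbp1, with edgeR, with DESeq2 and in a fit of all 4 groups.

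**Figure D5:**
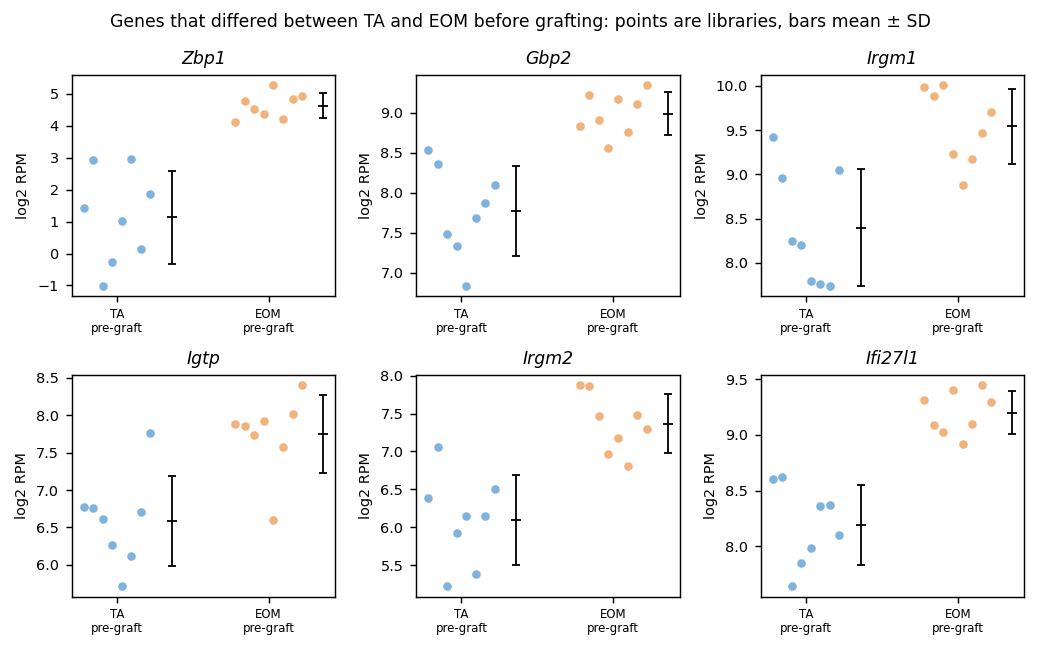
Log2 RPM of the 6 members called lower in TA than in EOM cells before grafting, in each TA and EOM pre-graft library (points), with group mean and SD (bar). Zbp1, Gbp2 and Ifi27l1 do not overlap between the groups, and Irgm1, Igtp and Irgm2 do.

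Between the grafts none of the same 6 genes was called, as was none of all genes tested, so a loss of their difference was not shown. Zbp1 ranged from -0.44 to 5.68 (median 3.92) in TA grafts and from 1.02 to 7.03 (median 4.20) in EOM grafts, a difference of -0.87 ± 1.06. The differences between grafts were 0.36 ± 0.49 for Gbp2, -0.23 ± 0.53 for Ifi27l1, -0.22 ± 0.48 for Irgm1, 0.03 ± 0.55 for Irgm2 and -0.10 ± 0.51 for Igtp, none of them called. Whether the difference between muscles changed on grafting was itself tested by the interaction above, and it was called for none of the 6.

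Upstream of these targets, genes for interferons were almost unread. Of 21 interferon genes listed, 17 were in the table, 4 had a read (Ifna2 with 26, Ifne with 12, Ifng with 4 and Ifna5 with 2 reads over the 30 libraries) and 0 reached the filter. Of 28 genes for interferon receptors and their signalling, 25 were tested. In TA grafts 3 were called higher and 3 lower, where the shares of all genes tested were 3.79 and 30.9%. In EOM grafts 2 were called higher and 11 lower, where these shares were 3.51 and 55.8%. Those called higher, named after their values were seen, were Irf7, the interferon-induced amplifier of interferon production, at 1.79 in TA and 1.44 in EOM cells, Tmem173 (STING), the adaptor for cytosolic DNA, at 2.69 and 2.71, and Jak2, at 1.31 in TA cells alone. The 3 with most reads, Irf1, Jak1 and Socs3, stood at -0.30, -0.68 and -0.61 in TA and -0.57, -0.87 and -0.99 in EOM cells and were not called. The calls lower in EOM grafts stood on a scale where the median of all genes was -1.48. Of 16 class I antigen-presentation genes, 2 were called higher and 0 lower in TA grafts and 2 higher and 2 lower in EOM grafts, with B2m, H2-K1 and H2-D1 not called.

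Markers of other cell types were read beside these changes. Summed macrophage markers were 17.2 to 72.0 RPM in TA grafts and 1.72 to 912 RPM in EOM grafts, against 19.2 to 43.3 RPM in TA and 26.8 to 2541 RPM in EOM pre-graft cells. Lymphocyte markers reached at most 14.8 RPM and neutrophil markers at most 3.19 RPM in any of the 14 grafts compared. Dendritic cell markers summed to 46.8 to 106 RPM in TA grafts and 0 to 87.6 RPM in EOM grafts, where pre-graft cells had 1.01 to 40.6 RPM in TA and 16.7 to 121 RPM in EOM. In TA grafts this sum rested mostly on 1 gene, Zbtb46, with 34 to 168 reads per library. Itgax and Cd209a had 0 reads there, and Ccr7, Flt3, Siglech and Xcr1 at most 7, 21, 26 and 3. In EOM grafts Zbtb46 had 0 to 99 reads and Xcr1 0 to 37. Myofibre markers were called higher in 2 of 8 in TA grafts (median log2 fold change 1.74) and in 7 of 8 in EOM grafts (median 3.84). They summed to 138 to 596 RPM in TA grafts and 19.8 to 1399 RPM in EOM grafts, against 23.8 to 289 RPM in TA and 9.47 to 57.4 RPM in EOM pre-graft cells. Of the fibro-adipogenic markers, 4 of 7 tested were called higher in TA grafts (Dcn, Lum, Col1a1 and Smoc2) and 2 lower (Col3a1 and Dpt), with a median of 4.42, and in EOM grafts 0 of 8 were called higher and 2 lower (Dpt and Pi16), with a median of -0.33. Their sums were 632 to 2490 RPM in TA grafts, 147 to 10891 RPM in EOM grafts, 1748 to 3562 RPM in TA and 1967 to 4055 RPM in EOM pre-graft cells. The part of these cell types in the members' levels was not tested.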

How the data were processed

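RNA of sorted MuSCs was separated from DNA and made into libraries by the G&T method and sequenced with paired reads of 75 bases. According to the submitters' notes and the study's methods, the authors trimmed reads with Trim Galore 0.4.4, aligned them with HISAT2 2.1.0 to GRCm38 and corrected for library size in SeqMonk. Whether counting used strand is not given in the sources used here, so a gene and an overlapping antisense gene cannot be told apart. The deposited gene values are log2 RPM per library. The authors' deposited summaries give the total read count per library, and the percent of reads in genes, exons, ribosomal RNA and the mitochondrial genome. Bisulfite libraries (40) were not used here.

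Deposited values stepped as whole reads (100% of values within 0.01 read), and reads were recovered from them, a gene without a read standing at 0.9 of a read. Genes with repeated identifiers were removed, which left 25900. The libraries compared were the 30 that pass the study's quality table, and groups came from the sample titles. Each comparison was fitted with limma 3.58.1 (trend) on the deposited log2 RPM of genes above 1 in at least 4 of its libraries, two-sided, with Benjamini-Hochberg adjustment over all genes tested. Called genes had an adjusted p below 0.05 and a change of more than 1 on the log2 scale. The change on grafting was compared between muscles by an interaction term over the 4 groups. Replicates are separate donor mice. Fits were tested on simulated data. Alternatives were a pseudocount of 1, other filters and scalings, edgeR 4.0.16 and DESeq2 1.42.0 on recovered reads, experiment as covariate, experiment 2 alone, all 40 libraries, 1 library left out, and the donor mouse as block.

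The same-numbered libraries are from the same donor mouse, so the numbers pair them, although their deviations from the group means correlated little, from -0.069 to 0.104 over 7 TA pairs and from -0.222 to 0.096 over 6 EOM pairs across grafting, and from -0.066 to 0.178 over 7 pairs before it. Named genes are the 3 members of each role with most reads that were tested, and every member called. Members and lists were chosen with earlier results of these data known. Shares of 75-base stretches held in other genes were taken from exons of GRCm38, and promoters from RefSeq. Intervals cover the spread between these libraries.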

Additional observations from a re-analysis of the deposited data

Results flagged for a closer look

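Single libraries stood far from the rest of their group in 14 of 140 member and group combinations tested (10%), by the gap of the highest or lowest library relative to the range, where chance gives about 1 in 20. In TA pre-graft cells the library of mouse 3 of experiment 2 had no read of Ifih1 or of Cmpk2, both at -1.14 log2 RPM. In EOM pre-graft cells the library of mouse 2 of experiment 2 was lowest for Igtp, at 6.59, and Ifi35, at 6.13. The TA graft of mouse 3 of experiment 2 was lowest for Ifih1, at 5.55, Irgm1, at 6.69, and Ifi27l1, at 4.88. The 1 TA graft of experiment 1, of mouse 3, was highest for Gbp4, at 10.33. The EOM graft of mouse 2 of experiment 2 was lowest for Ifi204, Cmpk2, Ifit2 and Ifit3, each without a read at -1.14, and for Bst2, at 4.22. Herc6 was lowest, at 0.77, in the EOM graft of mouse 5 of experiment 2.

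The 6 grafts that were left out of the tests all had a larger share of reads on the members than any of the 16 pre-graft libraries compared, the highest of which was at 0.433%. The EOM grafts of experiment 1 stood at 1.81% (mouse 1), 0.742% (mouse 3) and 1.22% (mouse 5). The TA grafts of experiment 1 stood at 2.01% (mouse 1), 1.40% (mouse 4) and 0.818% (mouse 5). The cause was not tested.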

How the results depend on the processing

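Counts of called members kept their direction and stayed within 1.5 times under most alternatives, in both graft comparisons under every one named in the methods. Single calls were less stable than the counts. Of the alternatives named there other than leaving out 1 library, all those that could be fitted kept 27 of the 37 TA calls and 15 of the 31 EOM calls. All 40 libraries lost 4 calls in TA and 13 in EOM grafts, and experiment 2 alone lost 9 and 4. The pre-graft count of 6 became 1 with edgeR, with DESeq2 and in 1 fit over all 4 groups, and 2 when centred on the library median or scaled without mitochondrial genes. With the endothelial marker level as a covariate, chosen after seeing the data, the counts were 10 in TA and 3 in EOM grafts, of 27 and 18 genes called higher in all. Members that changed sign in that fit were Gbp6 in TA grafts (-0.21) and Ifi203 (-0.78), Ifitm1 (-0.51), Slfn5 (-0.40) and Slfn3 (-0.95) in EOM grafts. Grafts with an endothelial level at or below 2873 RPM, the highest pre-graft level of either muscle, were also fitted alone against the pre-graft libraries. The counts were then 11 (2 TA grafts) and 15 (3 EOM grafts), with fewer samples in each. The EOM grafts of mice 2 and 5 of experiment 2, at 1022 and 1356 RPM, lay above all EOM pre-graft libraries. The cause was not tested.

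Leaving out 1 library at a time gave 32 to 43 called members in TA grafts, 27 to 37 in EOM grafts, 5 to 7 before grafting, and 0 to 0 between grafts and for the difference of the changes. With the donor mouse as block 38 members were called in TA grafts (36 of them as before), 26 in EOM grafts, 5 before grafting (1 higher and 4 lower in TA), 0 between grafts and 0 for the difference of the changes. Beyond the calls named in the report, the block lost no call. Experiment 1 has 1 graft per muscle, too few for values of its own, and experiment 2 alone gave 27, 29, 5, 0 and 0. Over single members, 837 values kept their call and direction and 169 kept the direction without the call.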

Other observations

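Before grafting, the EOM libraries fell into those with and without reads of several members. In the libraries of mice 4, 5 and 6 of experiment 2, 44 or 45 members had a read, against 49 to 55 in the other 5. Their endothelial marker sums were 150, 102 and 188 RPM, and those of the other 5 were 236 to 879 RPM. The TA pre-graft library with the fewest members read, 24, had the lowest endothelial sum, 19.7 RPM. Of the pre-graft libraries left out of the tests, the EOM library of mouse 3 of experiment 2 had an endothelial sum of 5121 RPM and a member share of 0.799%, and the TA library of mouse 1 of experiment 1 had 2484 RPM and 0.656%, both above the highest share of 0.433% among the 16 compared. The part of endothelial RNA in these shares was not tested.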
